A study of Mus musculus with 12 samples.

Results

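Glycosphingolipids are membrane lipids in which a sugar chain is attached to ceramide, and the 10 genes described here encode enzymes that build them in the brain: Ugcg, B4galt6, St3gal5, St8sia1, St8sia5, B4galnt1, B3galt4, St3gal2, Ugt8a and Gal3st1. They were taken by symbol from the 24062 genes of the table of read counts, where all 10 symbols were found, and all 10 were among the 15440 genes that passed the filter on low counts. The enzymes were selected on the measured log2 fold changes of PS19 over WT mice, in which genes of this pathway had been noticed, so that difference is given below as values with no test.

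The libraries were made from the cortex of mice that were 9 months old, in 4 groups of 3 libraries. WT mice carried neither alteration. PS19 mice (P301S Tia1+/+) express human 1N4R tau with the frontotemporal dementia mutation P301S from a transgene under the mouse prion protein (Prnp) promoter, which is active in neurons and in other cells, and they keep both copies of Tia1, which encodes an RNA-binding protein of stress granules. Tia1+/- mice lack 1 copy of Tia1 through a null allele and carry no transgene, and P301S Tia1+/- mice carry both alterations. The tau line was on a mixed B6;C3 background and the Tia1 allele on C57BL/6J, and the groups came from crosses of their offspring. For the 6 libraries with reduced Tia1, each title names one of the 2 genotypes and the genotype field of the same entry names the other. The titles were followed here. If the genotype field were right, the 2 groups would exchange places: the direction of P301S Tia1+/- against Tia1+/- would turn, and the comparisons with PS19 and with WT would each take the other 3 libraries.

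Total counts ran from 11978962 to 19146484 per library. Tia1 itself did not separate the groups: its level was 93.8, 76.8 and 75.4 CPM (counts per 1000000 counted, with TMM factors) in WT, 77.9, 70.8 and 71.9 in PS19, 61.4, 62.8 and 79.8 in Tia1+/- and 72.6, 73.5 and 77.8 in P301S Tia1+/- libraries. The Tia1+/- range overlapped the WT range and the P301S Tia1+/- range overlapped the PS19 range, so these groups are named as labelled, and whether reads of the disrupted allele were counted was not tested. All 6 libraries labelled Tia1+/- or P301S Tia1+/- held 3304 to 5693 counts of Xist, the female-specific RNA of the inactive X chromosome, and at most 3 counts of any of 4 Y-linked genes. The WT and PS19 libraries held at most 13 counts of Xist and 472 to 2296 counts of each Y-linked gene. The study's methods name male mice unless otherwise noted. Tia1 genotype and sex therefore cannot be told apart in these libraries. Neuronal markers were present in every library (10 of 10 genes, 7061 to 9799 CPM in sum). The summed CPM of 10 olfactory bulb markers was 1192 in WT replicate 1 and 753 to 881 in the P301S Tia1+/- libraries, against 8.73 to 172 in the other 8 libraries, and the sum of 10 striatal markers was 2607 in Tia1+/- replicate 3 against 207 to 436 in the other 11. These 5 libraries stand apart, and the values that move with them are given beside the results.

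Synthesis splits at ceramide. Glucosylceramide synthase (Ugcg) opens the branch to lactosylceramide and the gangliosides, the sialylated glycosphingolipids that are abundant on neurons, while galactosylceramide synthase (Ugt8a) opens the branch to galactosylceramide and, through the sulfotransferase Gal3st1, to sulfatide, both major lipids of myelin. On the ganglioside branch B4galt6 makes lactosylceramide, St3gal5 makes GM3, the base of the a-series, and St8sia1 makes GD3, the base of the b-series. B4galnt1, B3galt4 and St3gal2 then lengthen and sialylate the chain to the complex gangliosides of adult brain, GM1, GD1a, GD1b and GT1b, and St8sia5 adds further sialic acids.

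The promoters of the 2 enzymes that open the branches and of the sulfotransferase are shown because they set the ubiquitous and the myelin enzymes side by side. Each sequence is the RefSeq window of 300 bases on GRCm38.p6, from 250 bases before to 50 bases after the annotated start, and capitals mark the motifs found on either strand, the GC box with the letters GGGCGG and the CCAAT box with the letters of its name. The window of Ugcg lies on the plus strand at chr4:59189300-59189599, that of Ugt8a on the minus strand at chr3:125938603-125938902 and that of Gal3st1 on the plus strand at chr11:3983386-3983685. The GENCODE M21 annotation, used below for exon lengths, starts Ugcg at 59189257. The whole Ugcg window therefore lies inside that gene model.
Ugcg: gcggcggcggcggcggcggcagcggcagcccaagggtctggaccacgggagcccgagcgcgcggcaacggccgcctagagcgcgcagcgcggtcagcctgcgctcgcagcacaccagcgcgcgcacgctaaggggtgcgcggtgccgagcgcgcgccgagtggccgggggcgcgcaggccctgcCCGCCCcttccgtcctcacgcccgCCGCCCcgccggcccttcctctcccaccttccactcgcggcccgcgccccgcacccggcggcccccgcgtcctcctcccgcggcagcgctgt
Ugt8a: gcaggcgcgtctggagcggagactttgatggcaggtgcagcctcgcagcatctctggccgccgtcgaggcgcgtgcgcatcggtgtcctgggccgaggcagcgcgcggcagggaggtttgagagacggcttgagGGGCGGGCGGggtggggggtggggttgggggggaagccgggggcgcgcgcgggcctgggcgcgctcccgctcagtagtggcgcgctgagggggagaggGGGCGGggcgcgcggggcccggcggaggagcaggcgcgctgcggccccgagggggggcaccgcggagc
Gal3st1: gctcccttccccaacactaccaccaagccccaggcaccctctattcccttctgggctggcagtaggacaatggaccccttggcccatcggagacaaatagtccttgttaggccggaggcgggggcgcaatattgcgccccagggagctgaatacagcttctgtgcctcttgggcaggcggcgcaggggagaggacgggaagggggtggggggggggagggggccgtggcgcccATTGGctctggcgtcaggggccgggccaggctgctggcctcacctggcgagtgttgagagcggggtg
The Ugcg window held 2 GC boxes in 81.3% G and C, the Ugt8a window held 3, of which 2 overlap, in 78.3% G and C, and the Gal3st1 window held no GC box and 1 CCAAT box in 67.0% G and C. Entries were found for 6 of the 10 enzymes, with 8 promoters in all. A GC box was present in 5 of the 8 and in 35.7% of all 32851 mouse promoters, and a CCAAT box in 5 of the 8 and in 37.4%. The promoters with a CCAAT box were those of Gal3st1, St3gal5 and St8sia1 only, so promoters of the same gene are counted more than once. On either strand, the TATA box (TATAAA) was in none of the 8 and in 13.6% of all promoters. The E box (CACGTG) was likewise in none of the 8 and in 7.15% of all, and the core of SOX factor sites (ACAAAG) in none of the 8 and in 18.7% of all. These matches describe the letters only.

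Per kilobase of annotated exon, averaged over the 12 libraries, the GM3 synthase St3gal5 was the highest of the 10 at 44.8 CPM per kb. It was followed by Ugcg at 23.3, B4galt6 at 20.0, B4galnt1 at 18.1, St3gal2 at 15.9, Ugt8a at 12.03 and St8sia5 at 10.05. The lowest levels were those of St8sia1 at 4.26, Gal3st1 at 3.99 and B3galt4 at 2.22 CPM per kb. Several neighbours in this order overlapped: Ugcg and B4galt6 spanned 19.7 to 28.1 and 16.2 to 23.7 CPM per kb over the 12 libraries, and St8sia1 and Gal3st1 spanned 3.34 to 4.93 and 2.78 to 5.28. St3gal5, which ran from 28.3 to 58.2 CPM per kb, lay above the whole range of each of the other 9. The most variable enzyme was St8sia5, whose highest library had 2.46 times the CPM of its lowest, and the steadiest was Ugcg at 1.43 times. B3galt4 rested on 31 to 81 counts per library and Gal3st1 on 67 to 164, and the other 8 on at least 433.

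**Figure D1:**
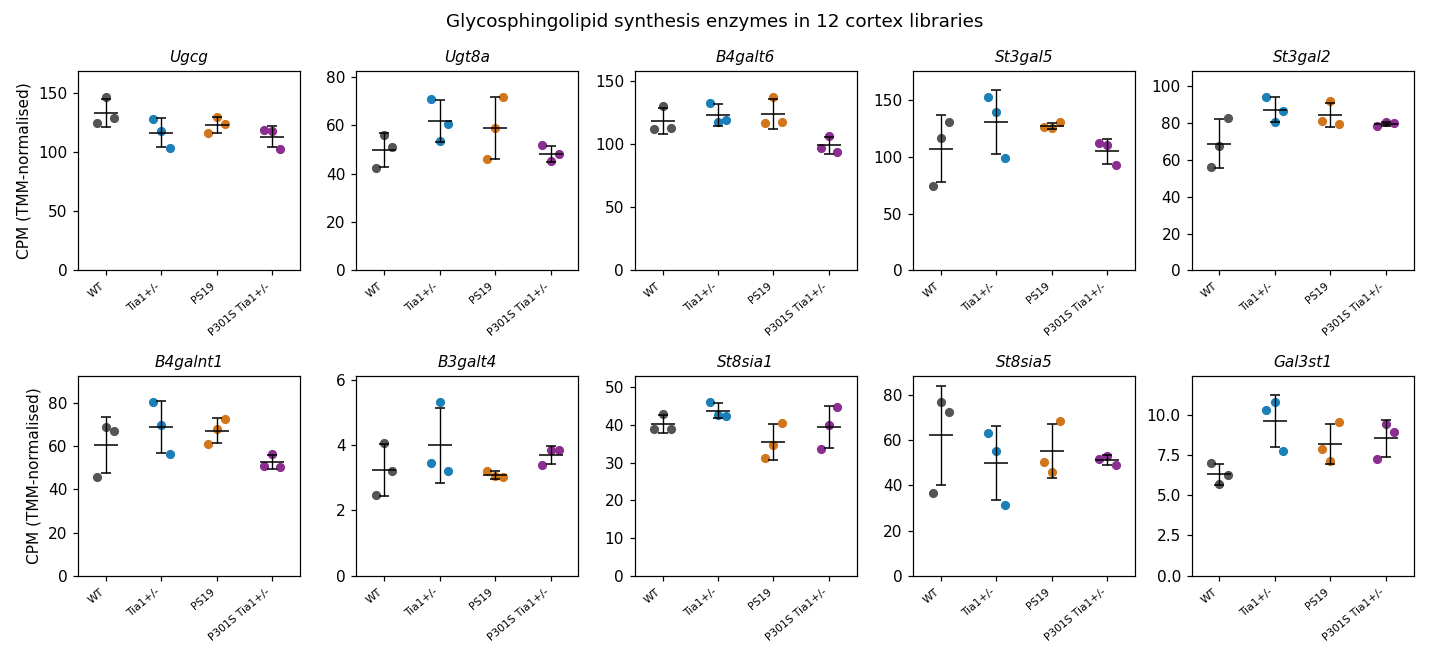
CPM of each enzyme in the 12 libraries, 1 panel per gene with axes from 0, points in replicate order, and the mean and SD of each group of 3. The 3 P301S Tia1+/- points of B4galt6 lie at 93.9 to 107, below every other library, and WT replicate 1 and Tia1+/- replicate 3 are the lowest points of St8sia5 at 36.7 and 31.3.

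Ugcg, which commits ceramide to the ganglioside branch, was at 125, 146 and 128 CPM in WT, 116, 129 and 123 in PS19, 128, 118 and 103 in Tia1+/- and 118, 118 and 102 in P301S Tia1+/- libraries. The P301S Tia1+/- libraries were below all 3 WT libraries, and the other pairs of groups overlapped. Its partner at the next step, the lactosylceramide synthase B4galt6, was at 112, 130 and 113 CPM in WT, 117, 137 and 118 in PS19 and 133, 117 and 119 in Tia1+/-. The P301S Tia1+/- libraries, at 97.0, 107 and 93.9 CPM, were below all 9 of these. For neither enzyme was the share of all genes with such a split counted.

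The GM3 synthase St3gal5 (chr6:72097592-72154571 on GRCm38, plus strand) varied most in WT and Tia1+/-, the groups in which a single library stands apart. WT gave 74.2, 116 and 131 CPM, Tia1+/- gave 152, 140 and 99.2, PS19 gave 126, 125 and 130, and P301S Tia1+/- gave 112, 110 and 92.2. PS19 was the tightest group (127 ± 2.60, SD, n = 3), whereas WT had a SD of 29.3 with its lowest value in replicate 1, the library high in olfactory bulb markers. B4galnt1 (chr10:127165225-127172330), the GM2 and GD2 synthase, whose 3′ end overlaps Slc26a10 on the opposite strand, ran largely in parallel, at 45.6, 68.9 and 67.2 CPM in WT, 61.2, 67.9 and 72.8 in PS19, 80.5, 70.0 and 56.6 in Tia1+/- and 50.9, 56.3 and 50.4 in P301S Tia1+/-. Over the 12 libraries the log2 CPM of St3gal5 and B4galnt1 had a Pearson r of 0.903, the highest of the 45 pairs of these enzymes. The 4 lowest B4galnt1 libraries, WT replicate 1 and the 3 P301S Tia1+/- libraries, are the 4 highest in olfactory bulb markers, and Tia1+/- replicate 3 came next at 56.6 CPM.

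St3gal2 (chr8:110919922-110972480), which adds the terminal sialic acid of GD1a and GT1b, was at 56.1, 67.7 and 82.7 CPM in WT, 81.4, 92.3 and 79.9 in PS19, 94.4, 80.9 and 86.8 in Tia1+/- and 78.5, 80.6 and 80.4 in P301S Tia1+/-. The highest WT library reached the other groups while the other 2 stayed below them. B3galt4 (chr17:33949909-33951488), the GM1 and GD1b synthase, was scarce, at 2.48, 4.06 and 3.19 CPM in WT, 3.22, 3.04 and 3.01 in PS19, 3.45, 5.32 and 3.22 in Tia1+/- and 3.40, 3.84 and 3.87 in P301S Tia1+/-.

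The GD3 synthase St8sia1 (chr6:142821545-142964452) was at 38.8, 43.1 and 38.9 CPM in WT, 31.2, 34.7 and 40.7 in PS19, 46.1, 42.7 and 42.5 in Tia1+/- and 33.6, 39.9 and 44.9 in P301S Tia1+/-. Of the 3 lowest libraries, 2 were PS19 and 1 was P301S Tia1+/-. St8sia5 was at 36.7, 76.9 and 72.6 CPM in WT, 50.5, 46.1 and 68.7 in PS19, 63.1, 55.3 and 31.3 in Tia1+/- and 51.9, 53.0 and 48.9 in P301S Tia1+/-. Its 2 lowest libraries were Tia1+/- replicate 3, high in striatal markers, and WT replicate 1, high in olfactory bulb markers, and what part these markers have in its spread was not tested.

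On the galactosylceramide branch, Ugt8a was at 42.3, 56.0 and 50.9 CPM in WT, 46.0, 58.7 and 71.7 in PS19, 70.6, 53.5 and 60.6 in Tia1+/- and 51.7, 45.1 and 48.0 in P301S Tia1+/-. The cerebroside sulfotransferase Gal3st1 was at 6.96, 5.67 and 6.24 CPM in WT, 7.85, 7.12 and 9.52 in PS19, 10.3, 10.8 and 7.73 in Tia1+/- and 7.23, 9.42 and 8.92 in P301S Tia1+/-. All 9 libraries outside WT were above the 3 WT libraries for Gal3st1, and no group was separate from all others for Ugt8a. The share of all genes split as Gal3st1 was not counted, and its split includes PS19 against WT, the difference used to choose the enzymes. The summed CPM of 12 oligodendrocyte markers, all detected, ran from 1912 to 2961 in WT, 2527 to 4303 in PS19, 3472 to 4531 in Tia1+/- and 2665 to 2912 in P301S Tia1+/-. In bulk cortex fewer cells of a type and less RNA per cell cannot be told apart. The highest Ugt8a library, PS19 replicate 3, had the second highest oligodendrocyte sum at 4303, and the lowest, WT replicate 1, had the lowest sum at 1912.

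**Figure D2:**
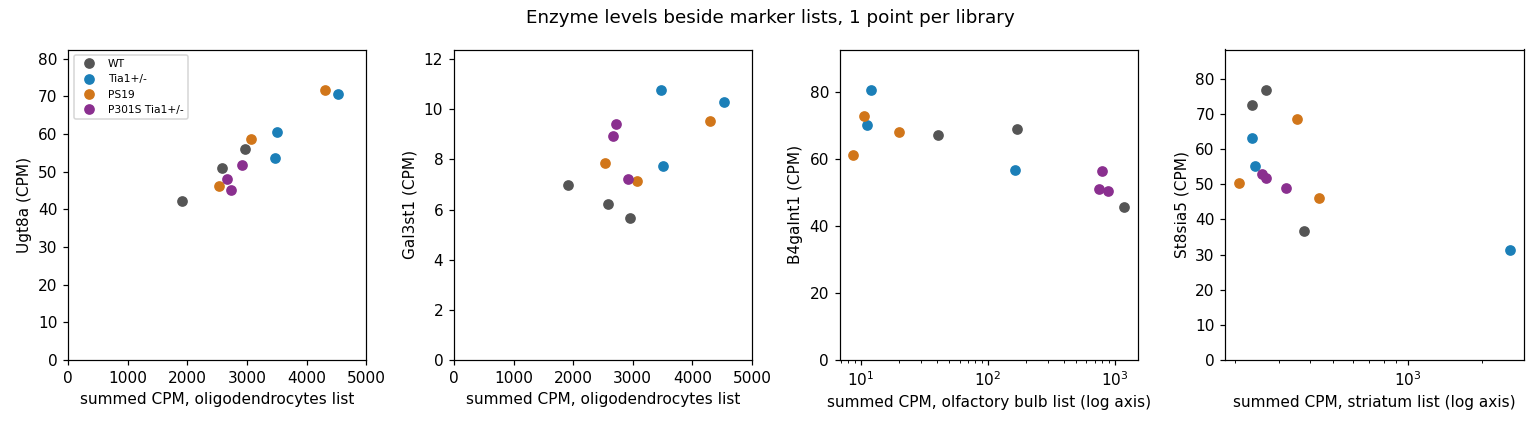
Enzyme level in CPM against the summed CPM of a marker list, 1 point per library coloured by group, with log axes for the olfactory bulb and striatal lists. Ugt8a rises with the oligodendrocyte sum from 42.3 CPM at a sum of 1912 to 70.6 CPM at 4531, B4galnt1 is lowest in the 4 libraries whose olfactory bulb sum is 753 or more, and the library with a striatal sum of 2607 has the lowest St8sia5 level.

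PS19 and WT mice differ in the tau transgene, and this is the difference with which the enzymes were chosen. The log2 fold changes of PS19 over WT were 0.38 for Gal3st1, 0.30 for St3gal2, 0.25 for St3gal5, 0.24 for Ugt8a, 0.15 for B4galnt1 and 0.07 for B4galt6, and -0.07 for B3galt4, -0.12 for Ugcg, -0.17 for St8sia5 and -0.18 for St8sia1. Of the 10, 6 were above 0 and 4 below, with a median of 0.11 against -0.0066 over all 15440 genes. Gal3st1 was the only enzyme whose PS19 libraries did not overlap WT, and 20.8% of all genes did not overlap between these groups. Without WT replicate 1 the median was 0.016 and the value of St3gal5 fell to 0.053, and without WT replicate 2 the median was 0.20. With the mean log2 CPM of the 10 olfactory bulb markers as a covariate (the olfactory bulb covariate), the median turned to -0.24. The 12 oligodendrocyte markers were all above 0 in the same difference, with a median of 0.54, as were all 8 microglial markers, with a median of 0.61. All 10 olfactory bulb markers were below 0, with a median of -5.67, and the part of these lists in the enzymes' values was not tested.

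P301S Tia1+/- and Tia1+/- mice also differ in the tau transgene, in 6 libraries from mice of 1 sex by Xist, of which none entered the choice. B4galnt1, Ugt8a, St3gal5 and B4galt6 had lower mean levels with the transgene, and none passed the adjusted threshold. B4galt6 averaged 99.1 CPM in P301S Tia1+/- and 123 in Tia1+/- mice, with all 3 libraries below, a log2 fold change of -0.31 (95% interval -0.53 to -0.10) and an adjusted p of 0.217 in edgeR's quasi-likelihood test. B4galnt1 averaged 52.6 against 69.0 CPM, with a log2 fold change of -0.39 ± 0.16 (SE) and an adjusted p of 0.289 in the same edgeR test. Ugt8a averaged 48.3 against 61.6 CPM, with a log2 fold change of -0.35 ± 0.16 (SE) and an adjusted p of 0.331.

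Those 3 and St3gal2 were the 4 of 10 enzymes whose groups did not overlap, all lower in P301S Tia1+/-, where 26.0% of all 15440 genes did not overlap in either direction. The groups came as close as 80.6 and 80.9 CPM for St3gal2. For B4galnt1 they came as close as 56.3 and 56.6 CPM, the latter in Tia1+/- replicate 3. St3gal5 was at -0.32 ± 0.20 with overlapping groups, and the remaining log2 fold changes lay between -0.17 for Gal3st1 and 0.04 for St8sia5. In all, 9 of 10 were below 0, with a median of -0.16 against 0.0064 over all genes. The median of the 10 was -0.28 without Tia1+/- replicate 3, -0.098 without P301S Tia1+/- replicate 1 and 0.14 with the olfactory bulb covariate. No enzyme and no gene of the table passed (0 of 15440, 0%), although 2405 genes and 2 of the enzymes, B4galt6 and B4galnt1, had an unadjusted p under 0.05, and DESeq2 called 403 genes and 0 of the 10. A fit of these 6 libraries alone called 334 genes, and 145 with the replicate number as a block, with 0 of the 10 in both. The olfactory bulb sum was 753 to 881 CPM in P301S Tia1+/- against 11.1 to 164 in Tia1+/- libraries, and 11 of 12 oligodendrocyte markers were below 0 with a median of -0.52. All 10 striatal markers were below 0 with a median of -2.39.

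2 settings changed these calls. When WT replicate 1 and Tia1+/- replicate 3 were both left out, a choice made after seeing the data, 23.4% of genes passed and with them B4galnt1 (-0.53, adjusted p = 0.00181 in edgeR), St3gal5 (-0.50, adjusted p = 0.00308 in edgeR) and B4galt6 (-0.35, adjusted p = 0.0232 in edgeR). With the olfactory bulb covariate added to the model, 6.21% of genes passed, and B4galnt1 and St3gal5 turned to 0.19 and 0.51. B4galt6 was at -0.28, with an unadjusted p of 0.102 in edgeR against 0.0085 in the main fit. St8sia5 was then the only enzyme past the threshold, at 1.28 (adjusted p = 0.0175 in edgeR). Within groups the olfactory bulb sum varied most in WT (40.9 to 1192 CPM) and Tia1+/- (11.1 to 164 CPM), through WT replicate 1 and Tia1+/- replicate 3.

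**Figure D3:**
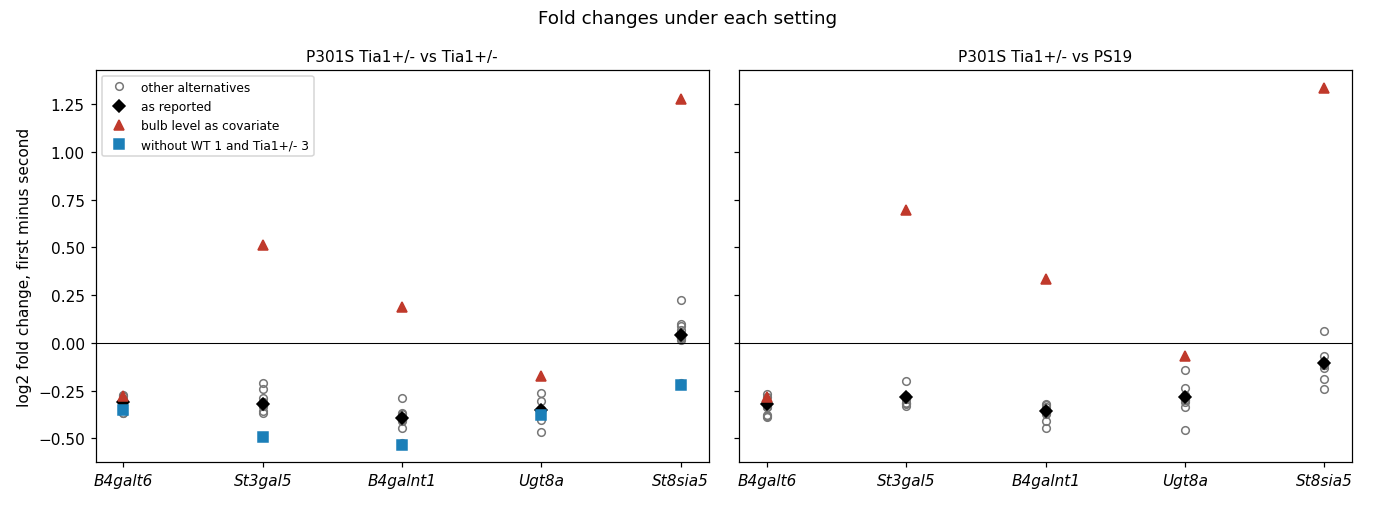
Log2 fold change of 5 enzymes in the 2 comparisons that include P301S Tia1+/- libraries, with the reported value as a diamond, the fit with the olfactory bulb covariate as a triangle, the fit without the 2 libraries as a square (first comparison only) and other alternatives as open circles. B4galt6 lies between -0.39 and -0.27 under every setting drawn, while St3gal5, B4galnt1 and St8sia5 are moved above 0 by the covariate.

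P301S Tia1+/- against PS19 addresses the loss of 1 Tia1 copy in mice with the tau transgene, and it shares the PS19 libraries with the difference above. Tia1 itself did not differ here beyond its spread, and the groups differ in sex. B4galt6 was again the enzyme with the smallest adjusted p: 99.1 against 124 CPM, a log2 fold change of -0.32 (95% interval -0.54 to -0.11) and an adjusted p of 0.139 in edgeR. B4galnt1 averaged 52.6 against 67.3 CPM (-0.36 ± 0.16, SE) and St3gal5 105 against 127 CPM (-0.28 ± 0.20, SE), both with separate groups. B3galt4 was separate in the other direction, at 3.70 against 3.09 CPM (0.26 ± 0.24, SE).

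These 4 of 10 separate enzymes compare with 38.5% of all genes, and 0 of 10 passed the adjusted threshold where 37 genes (0.240%) did. The unadjusted p was under 0.05 for 1 enzyme, B4galt6, and for 2976 genes. The median of the 10 was -0.11 against 0.0097 over all genes, -0.19 without PS19 replicate 1 and 0.29 with the olfactory bulb covariate. DESeq2, which called 5.28% of genes, called B4galt6 (-0.33, adjusted p = 0.0439). A fit on the 6 libraries alone, in which 20.1% of genes passed, called B4galnt1 (adjusted p = 0.0188 in edgeR), B4galt6 (adjusted p = 0.0284) and St3gal5 (adjusted p = 0.0411), with fold changes as above. The olfactory bulb covariate, with 5.96% of genes past the threshold, gave 0.70 for St3gal5 (adjusted p = 0.0340 in edgeR) and 1.34 for St8sia5 (adjusted p = 0.0252), and B4galnt1 was at 0.33, so the directions of all 3 depend on it. The olfactory bulb sum was 753 to 881 CPM in the first group and 8.73 to 20.1 in PS19, and all 12 oligodendrocyte markers were below 0 with a median of -0.26.

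Tia1+/- against WT addresses the loss of 1 Tia1 copy without tau, in groups that differ in sex and share the WT libraries with the PS19 difference. The sulfotransferase Gal3st1 had the largest value, 9.60 ± 1.63 against 6.29 ± 0.650 CPM (SD, n = 3), with separate groups, a log2 fold change of 0.61 (95% interval 0.22 to 1.001) and an adjusted p of 0.109 in edgeR. St3gal2 followed at 87.4 against 68.8 CPM (0.34 ± 0.13, SE, adjusted p = 0.173 in edgeR), with overlapping groups. Ugt8a was at 0.31, B3galt4 at 0.30, St3gal5 at 0.29, Ugcg at -0.19 and St8sia5 at -0.32, and none of them was separate. Gal3st1 was thus the 1 separate enzyme of 10, where 20.0% of all genes were separate.

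None of the 10 passed the adjusted threshold and 110 genes (0.712%) did. 2 enzymes, Gal3st1 and St3gal2, and 2955 genes had an unadjusted p under 0.05, and DESeq2 called 972 genes and 0 of the 10. Of the 10, 8 were above 0, with a median of 0.24 against 0.0057 over all genes, and of 0.10 without WT replicate 1, 0.32 without Tia1+/- replicate 3 and 0.019 with the olfactory bulb covariate. All 12 oligodendrocyte markers were above 0 in this comparison, with a median of 0.84 and 1 of them, Cnp, past the threshold. All 10 striatal markers were above 0 (median 2.75) and all 10 olfactory bulb markers below 0 (median -2.72). Without WT replicate 3, where 3.16% of genes passed, St3gal2 passed at 0.51 (adjusted p = 0.0434 in edgeR). With the olfactory bulb covariate, 7.95% of genes passed and St8sia5 was called at -1.05 (adjusted p = 0.0101 in edgeR). St3gal5 fell to 0.093 without WT replicate 1, and St8sia5 ran from -0.57 without WT replicate 1 to -0.060 without Tia1+/- replicate 3.

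**Figure D4:**
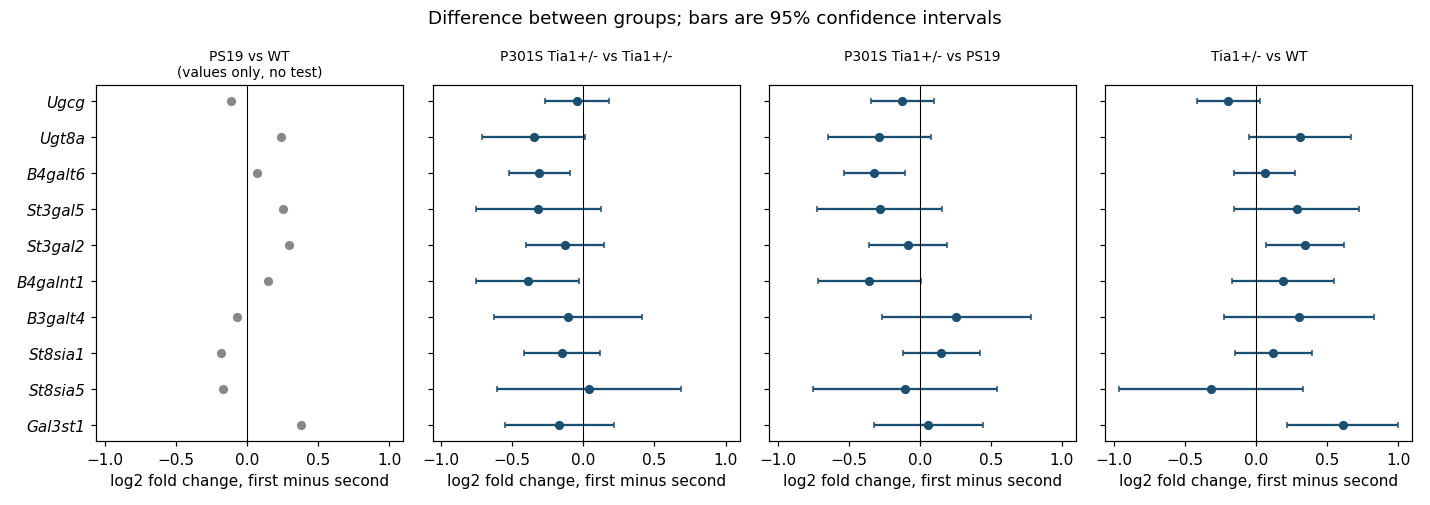
Log2 fold change of the 10 enzymes in the 4 differences, first group minus second, with 95% confidence intervals for the 3 that were tested and points alone for PS19 against WT. The interval of B4galt6 stays below 0 in both comparisons of P301S Tia1+/- mice, from -0.53 to -0.10 and from -0.54 to -0.11. Both comparisons share the P301S Tia1+/- libraries. The interval of Gal3st1 stays above 0 in Tia1+/- against WT.

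Set side by side, the tau transgene difference was 0.24 for Ugt8a with both copies of Tia1 and -0.35 with 1 copy, a gap of -0.59 ± 0.23 (SE). The gap was -0.57 ± 0.28 for St3gal5, -0.55 ± 0.25 for Gal3st1, -0.54 ± 0.23 for B4galnt1, -0.43 ± 0.18 for St3gal2 and -0.38 ± 0.14 for B4galt6. It was -0.04 for B3galt4, 0.03 for St8sia1, 0.07 for Ugcg and 0.21 for St8sia5. With the olfactory bulb covariate the values with 1 copy turned to 0.51 for St3gal5, 0.19 for B4galnt1, 0.15 for St3gal2 and 0.041 for Gal3st1. Those of Ugt8a and B4galt6 were then -0.17 and -0.28. The gaps were not computed with that covariate. These gaps contain the PS19 difference that chose the enzymes and were not tested. The libraries with both copies and with 1 copy also differ in sex by Xist, so Tia1 genotype and sex cannot be told apart in a gap. The olfactory bulb sum was 753 to 881 CPM in P301S Tia1+/-, 11.1 to 164 in Tia1+/-, 8.73 to 20.1 in PS19 and 40.9 to 1192 in WT. Its part in the gaps was not tested.

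4 ratios of counts between the enzymes were looked at after the values were seen. St3gal5 over B4galt6 ran from 0.665 to 1.19 and Gal3st1 over Ugt8a from 0.101 to 0.209, and all 4 groups overlapped in both. Ugt8a over Ugcg was 0.339, 0.382 and 0.397 in WT, 0.398, 0.454 and 0.580 in PS19, 0.552, 0.454 and 0.587 in Tia1+/- and 0.438, 0.383 and 0.468 in P301S Tia1+/- libraries. The WT libraries were the lowest but for 1 P301S Tia1+/- library. B4galnt1 over St8sia1, the chain-lengthening enzyme over the entry to the b-series, was 1.18, 1.60 and 1.73 in WT, 1.96, 1.96 and 1.79 in PS19, 1.75, 1.64 and 1.33 in Tia1+/- and 1.52, 1.41 and 1.12 in P301S Tia1+/-. The 3 PS19 libraries were above all 9 others in this ratio, and they are also libraries with a low olfactory bulb sum. The part of that sum in the ratio was not tested. The PS19 libraries and the others came as close as 1.79 and 1.75. This split and the low WT values of Ugt8a over Ugcg both include PS19 against WT, the difference used to choose the enzymes. The share of gene pairs with such splits was not counted.

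Genes whose log2 CPM closely followed each enzyme over the 12 libraries differed from enzyme to enzyme, also within a branch. For Ugt8a they were Ermn (r = 0.941), Anln (r = 0.926) and Dbndd2 (r = 0.924), of which Ermn is a myelin gene of the oligodendrocyte list. St3gal5 was followed by Npdc1 (r = 0.988), Ndrg3 (r = 0.981) and Nceh1 (r = 0.975), and B4galnt1 by Arhgap32 (r = 0.980), Faxc (r = 0.977) and the axonal motor Kif1b (r = 0.977). St8sia5 was followed by Prickle1 (r = 0.968), Ntm (r = 0.956) and Cabp1 (r = 0.949). B4galt6 was followed by the chaperone Hsp90ab1 (r = 0.947), Kbtbd11 (r = 0.944) and Ywhaz (r = 0.922), and Ugcg by Zfp655 (r = 0.943) and Leprotl1 (r = 0.933). For St3gal2 the closest were Rhbdd2 (r = 0.951), Neurl1a (r = 0.944) and Ctxn1 (r = 0.939), and for St8sia1 they were Sec16a (r = 0.923), Ubr2 (r = 0.908) and Smarca4 (r = 0.890). The scarce enzymes had looser matches, Gal3st1 with Gorasp1 (r = 0.891), Nkain1 (r = 0.871) and Adnp2 (r = 0.866), and B3galt4 with Bnip1 (r = 0.877), Abhd11 (r = 0.855) and Acot5 (r = 0.836). These are among the highest of 15440 genes on shared libraries and describe likeness only. Among the enzymes themselves Ugt8a and Gal3st1, the successive steps to sulfatide, had an r of 0.273, and the lowest pair was Ugcg with Gal3st1 at -0.446.

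The rest of the pathway was read from 3 lists: ceramide synthesis and transfer (14 of 16 genes passed the filter), other glycosphingolipid synthesis and sialic acid supply (17 of 17) and glycosphingolipid breakdown (16 of 16). No gene of the 3 lists passed the adjusted threshold in any of the 3 tested comparisons. Among the synthesis genes Fa2h, the fatty acid 2-hydroxylase that acts on myelin galactolipids, averaged 4.17 CPM in WT, 6.64 in PS19, 10.5 in Tia1+/- and 5.17 in P301S Tia1+/-. Its log2 fold change was 1.33 for Tia1+/- against WT (adjusted p = 0.0574 in edgeR) and -1.02 for P301S Tia1+/- against Tia1+/- (adjusted p = 0.183), with separate groups in both. Fa2h thus had the same order of groups as the oligodendrocyte sum in the tested pairs.

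In the same list, the sialyltransferase St3gal1 was higher in all 3 Tia1+/- libraries than in WT (15.8 against 7.87 CPM, log2 fold change 1.01, adjusted p = 0.0531 in edgeR). The other large values were -0.75 for St8sia3 in P301S Tia1+/- against Tia1+/- (109 against 184 CPM), and 0.77 for St6galnac3 and -0.69 for St6galnac5 against PS19. Of the ceramide genes, Sptssb, a small subunit of serine palmitoyltransferase, was at -1.17 against Tia1+/- and -0.80 against PS19 in P301S Tia1+/- mice. Its mean was 1.29 CPM in P301S Tia1+/-, 2.93 in Tia1+/- and 2.25 in PS19. Gltp was at -0.26 in the former comparison and Degs2 at 0.42 in the latter. Cers6 and Degs2 were at -0.45 and 0.45 in Tia1+/- against WT. Of the breakdown genes, the alpha-galactosidase Gla was at -0.60 in Tia1+/- against WT (21.4 against 32.5 CPM, adjusted p = 0.0580 in edgeR) and at 0.48 in P301S Tia1+/- against Tia1+/-. Galc stood at -0.31 in the latter comparison, Neu3 at 0.26 in P301S Tia1+/- against PS19, and Neu4 at 0.47 in Tia1+/- against WT.

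The list medians lay between -0.064 and 0.15 in the tested comparisons. For ceramide synthesis they were -0.0028, 0.053 and 0.0055 in P301S Tia1+/- against Tia1+/-, P301S Tia1+/- against PS19 and Tia1+/- against WT, with 7, 8 and 7 of 14 genes above 0. For other synthesis they were -0.058, -0.064 and 0.088, with 7, 6 and 13 of 17 above 0, and for breakdown 0.12, -0.0062 and 0.15, with 13, 7 and 13 of 16 above 0. In PS19 against WT, given without a test, the list medians in the same order were -0.044, 0.163 and 0.158, beside 0.11 for the 10 enzymes. Of the genes, 6 of 14, 11 of 17 and 13 of 16 were above 0. Values of the lists in this difference included 0.47 for Cers4, -0.33 for Cers6, 0.72 for St6galnac5, 0.67 for Fa2h and 0.68 for Neu4. Neu4 is also one of the oligodendrocyte precursor markers, whose sum was 104 to 126 CPM in WT and 144 to 172 in PS19. The part of these cells in its value was not tested.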

How the data were processed

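RNA of 12 mouse cortex libraries was measured by stranded, paired-end total RNA sequencing, and the authors deposited raw counts per gene. Per the labels and the study's methods, reads were aligned to mm10 with TopHat2 (version 2.0.6 in the submitters' processing notes, a later version in the study's methods) and counted with featureCounts. The annotation, strand setting and treatment of multiply mapped reads are not given in the sources used here. Without the strand setting, reads of B4galnt1, St8sia1 and St8sia5 cannot be told apart from those of overlapping genes on the other strand. St3gal5 and St3gal2 overlap genes on both strands, so for them the strand setting alone would not separate the reads. The ribosomal gene Rn45s took 0.117 to 2.71% of counts.

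Genes were filtered with filterByExpr and scaled by TMM in edgeR 4.0.16 (R 4.3.3), with 1 mean per group over all 12 libraries. The quasi-likelihood F test was two-sided, with Benjamini-Hochberg adjustment over all 15440 genes tested and a threshold of 0.05. P-values rest on the spread between mice, with 3 mice per group. In the main fit it was estimated over all 12 libraries, so groups outside a comparison also enter it. CPM used TMM factors, and levels per kilobase used GENCODE M21 exon lengths. Scripts were tested on simulated data. DESeq2 1.42.0, other filters and scalings, fewer libraries, an olfactory bulb covariate and the replicate number as a block were tried as alternatives. The covariate was the mean log2 CPM of the olfactory bulb markers, not their summed CPM. Same-numbered libraries deviated together (r over 0.1) in 7 of 18 pairs (-0.538 to 0.346). All 3 pairs passed only for Tia1+/- with P301S Tia1+/- (0.123, 0.134 and 0.240).

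The enzymes and lists were chosen with earlier results of these data known. Named are all 10 enzymes, the genes of 3 pathway lists past the threshold or else the 2 with the largest absolute fold change per list and comparison, and the 3 genes most correlated with each enzyme. Some genes that this rule names are not reported here.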

Additional observations from a re-analysis of the deposited data

How the results depend on the processing

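Over 21 alternative settings and the 3 tested comparisons, 388 values of single enzymes kept their direction and side of the threshold, 22 reversed and 12 passed the threshold only under the alternative, of which 2 are among the reversed. The cause was not tested. The count of genes past the threshold was 0 in P301S Tia1+/- against Tia1+/-, and 403 with DESeq2, 334 with the 6 libraries alone, 959 with the olfactory bulb covariate, 3646 without WT replicate 1 and Tia1+/- replicate 3 and 0 when any 1 library was left out. In P301S Tia1+/- against PS19 it was 37, and 821 with DESeq2, 15 with at least 10 counts in every library, 3025 with the 6 libraries alone, 920 with the covariate and 6 to 12 when 1 library was left out. In Tia1+/- against WT it was 110, and 972 with DESeq2, 73 with no filter, 6 with the 6 libraries alone, 1228 with the covariate, 267 without the 2 libraries, and from 8 without Tia1+/- replicate 1 to 497 without WT replicate 3. The enzymes called were 1 with the covariate and 3 without the 2 libraries in the first comparison, 1 with DESeq2, 3 with the 6 libraries alone and 2 with the covariate in the second, and 1 with the covariate and 0 to 1 when 1 library was left out in the third.

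With the olfactory bulb covariate the median of the 10 for PS19 over WT was -0.24. The same covariate reversed, in P301S Tia1+/- against Tia1+/-, Ugcg (0.13), St3gal5 (0.51), St3gal2 (0.15), B4galnt1 (0.19), B3galt4 (0.39) and Gal3st1 (0.041). Against PS19 it reversed Ugcg (0.083), St3gal5 (0.70), St3gal2 (0.26), B4galnt1 (0.33) and St8sia5 (1.34), and in Tia1+/- against WT St3gal5 (-0.20), B4galnt1 (-0.16) and B3galt4 (-0.0035). St8sia5 was at -0.22 against Tia1+/- without the 2 libraries. Leaving out 1 library moved, against Tia1+/-, Ugcg from -0.13 to 0.017, B3galt4 from -0.25 to 0.12 and St8sia5 from -0.21 to 0.23, and, against PS19, Gal3st1 from -0.051 to 0.16 and St8sia5 from -0.24 to 0.061.

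The replicate number as a block over all 12 libraries left 7 genes in P301S Tia1+/- against PS19 and 9 in Tia1+/- against WT. In P301S Tia1+/- against Tia1+/-, same-numbered libraries deviated together (r of 0.123, 0.134 and 0.240), but the titles give only a number. Whether the numbers pair mice was not tested. A fit of the 6 libraries of that comparison with the replicate block, added after seeing the data, gave 145 genes. The block changed no call of an enzyme. B3galt4 rested on 31 to 81 counts per library, and whether depth sets the width of its intervals was not tested.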
